A study of Mus musculus with 89 samples.

Results

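The 7 genes described here code for membrane proteins that astrocytes and astrocyte-like stem cells use to couple to each other and to handle water and ions. They are the gap junction genes Gja1, Gjb6 and Gjb2, the water channel gene Aqp4, the membrane protein gene Mlc1, the adhesion gene Hepacam and the claudin gene Cldn10. They were taken by name from a table of 24411 genes (16234 with any read), and all 7 were found in both expression tables. The genes were selected on their expression levels over the classes, colour codes and ages of the same cells, so what follows describes those levels and carries no test of them.

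The levels come from 89 single cells sorted from the dissected dentate gyrus, a part of the hippocampus where stem cells make neurons in the adult brain. All mice were homozygous Nestin:CFPnuc animals, labelled C57BL/6 and B6.Cg-Tg(Nes-CFP)1Enik/J, in which a Nestin promoter drives a nuclear fluorescent protein. The cells came from mice of 4.5 months (41 cells) or 2 months (48 cells), and the study asks how stem cells and their progeny differ between these ages. The authors' table places 11 cells in the class IPC, 18 in aNSC and 60 in qNSC, read here as intermediate progenitors, activated stem cells and quiescent stem cells. The qNSC cells carry 1 of 3 colour codes, called green (25 cells), red (26 cells) and blue (9 cells) here. How classes and colours were assigned is not stated; if the same expression values were used, they fix part of any difference between the groups.

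The 18 aNSC cells were split at 10 counts of Pdgfra, which codes for a growth factor receptor of oligodendrocyte precursors. The 7 Pdgfra-positive cells (3 of 4.5 months, 4 of 2 months) had 531 to 3057 counts of it, and the 11 Pdgfra-negative cells (4 of 4.5 months, 7 of 2 months) had 0. The IPC cells numbered 6 at 4.5 months and 5 at 2 months, and the qNSC cells 28 at 4.5 months against 32 at 2 months. No label names the animal of a cell, so each age is 1 sample, and no p-value or standard error is given. An SD here is the spread over cells, not over animals. The 95% intervals of shares are exact Clopper-Pearson intervals and cover counting error only.

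Gap junctions are channels that join the insides of neighbouring cells, and each is built from connexins. Connexin 43 (Gja1) and connexin 30 (Gjb6) are the main connexins of astrocytes, and both are also found in the radial glia-like stem cells of the dentate gyrus. Aquaporin-4 lets water cross the astrocyte membrane, above all at endfeet on blood vessels. MLC1 and its partner HEPACAM (GlialCAM) sit at astrocyte junctions, and in humans mutations of either gene cause a leukodystrophy with cysts.

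Cells held 234607 to 1896072 counts, with a median of 912391, and 2156 to 6046 genes. Median totals were 944913 counts in Pdgfra-positive aNSC, 952296 in IPC, 798669 in Pdgfra-negative aNSC and 918275 in qNSC, and 13 cells were under 500000 counts. The class labels were checked against markers. Summed over 12 astrocyte markers, the median cell had 2298 CPM (counts per 1000000 counts) in Pdgfra-positive aNSC, 1746 CPM in IPC, 17514 CPM in Pdgfra-negative aNSC and 36004 CPM in qNSC. All 7 Pdgfra-positive aNSC cells had 8 or 9 of 9 oligodendrocyte precursor markers at 10 or more counts, while 5 of the 9 were at 0 in the Pdgfra-negative cells (Pdgfra, Sox10, Neu4, Lhfpl3 and Gpr17). Summed over 10 markers of intermediate progenitors and neuroblasts, the median was 1127 CPM in IPC, 17.5 CPM in Pdgfra-negative aNSC and 0 CPM in qNSC.

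Some cells stood apart. One 4.5-month Pdgfra-negative aNSC cell held 10.6% of its counts in Enpp2 and 6.503% in Ttr, 2 genes known from choroid plexus epithelium, and only 1 to 7 counts of any member read in it. One 2-month Pdgfra-negative aNSC cell had all 7 mural markers and 5 of 8 endothelial markers at 10 or more counts. Markers of another cell type, at least 50% of a list, were met in 15 cells in all. They were 7 Pdgfra-positive aNSC, 1 Pdgfra-negative aNSC and 7 qNSC (1 green, 5 red, 1 blue). The green qNSC cell, of 4.5 months, had all 8 oligodendrocyte markers at 10 or more counts. Y-linked genes reached 10 counts in 0 of 41 cells of 4.5 months and 38 of 48 cells of 2 months, and Xist or Tsix in 37 of 41 and 0 of 48, so age and sex cannot be told apart here.

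The 3 connexin genes sit at 2 places in the genome (mm10, GENCODE annotation). Gja1 spans chr10:56377330-56402513 on the plus strand. Gjb6 (chr14:57123303-57133611) and Gjb2 (chr14:57098600-57104702) are neighbours on the minus strand, with 18601 bases between them, yet differ widely in level. Mlc1 lies at chr15:88955884-88979007, Hepacam at chr9:37367351-37386575 and Cldn10 at chr14:118787908-118875489. No exon of the 7 members overlaps an exon of another annotated gene. The 250 bases upstream of the 3 connexin starts are printed because Gja1 and Gjb6 were read together in most stem cells while Gjb2, next to Gjb6, was read in few. They are RefSeq sequences of build GRCm38.p6, 5′ to 3′ in the gene's sense, and capitals mark GC boxes (GGGCGG on either strand).
Gja1, chr10:56377050-56377299, plus strand: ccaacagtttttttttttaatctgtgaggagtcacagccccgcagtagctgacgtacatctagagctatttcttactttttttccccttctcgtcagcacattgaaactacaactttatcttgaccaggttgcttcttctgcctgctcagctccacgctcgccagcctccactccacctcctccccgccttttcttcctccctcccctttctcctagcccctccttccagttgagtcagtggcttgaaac
Gjb6, chr14:57133612-57133861, minus strand: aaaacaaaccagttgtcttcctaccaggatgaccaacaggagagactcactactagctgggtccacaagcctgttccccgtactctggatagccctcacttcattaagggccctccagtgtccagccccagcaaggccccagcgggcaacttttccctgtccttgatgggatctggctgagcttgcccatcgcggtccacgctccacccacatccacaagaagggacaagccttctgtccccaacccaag
Gjb2, chr14:57104703-57104952, minus strand: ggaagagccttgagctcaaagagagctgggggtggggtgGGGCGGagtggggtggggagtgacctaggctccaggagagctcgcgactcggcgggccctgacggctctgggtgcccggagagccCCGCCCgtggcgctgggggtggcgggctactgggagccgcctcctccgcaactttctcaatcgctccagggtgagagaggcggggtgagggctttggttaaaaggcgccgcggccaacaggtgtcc
The Gjb2 window was the richest in G and C, at 69.2% with 18 CpG sites, against 56.8% and 5 CpG sites upstream of Gjb6 and 50% and 6 upstream of Gja1. The median over 32536 promoters of the same length was 52.4%. The Gjb2 window held 2 GC boxes, 211 to 206 and 126 to 121 bases before the start, a motif found in 32.97% of all windows. No match was found in the 3 windows for the NFI motif (TTGGCA, in 12.3% of all windows), the SOX core ACAAT (27.4%), the STAT motif TTCNNNGAA (7.04%), the RBPJ motif TGGGAA (21.6%) or TATAAA (12.3%), each searched on both strands. A match or its absence describes these letters alone.

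In qNSC the members formed 3 tiers by TPM (transcripts per 1000000 transcripts, which allow for gene length). Cldn10 led with a mean of 4633 ± 3207 TPM (SD, n = 60 cells), followed by Gja1 at 1804 ± 1234 TPM, Mlc1 at 1570 ± 757 TPM and Gjb6 at 995 ± 923 TPM. Aqp4 (205 ± 225 TPM) and Hepacam (176.6 ± 165.5 TPM) were lower, and Gjb2 was last at 7.36 ± 17.99 TPM. Within single cells Cldn10 was above Gja1 in 55 of 60 and above Mlc1 in 48 of 60. Gja1 was above Mlc1 in 31 of 60 and Aqp4 above Hepacam in 28 of 60, so these neighbours in the order could not be separated. Gja1 was above Gjb6 in 49 cells, and Gjb6 above Aqp4 in 48.

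**Figure D1:**
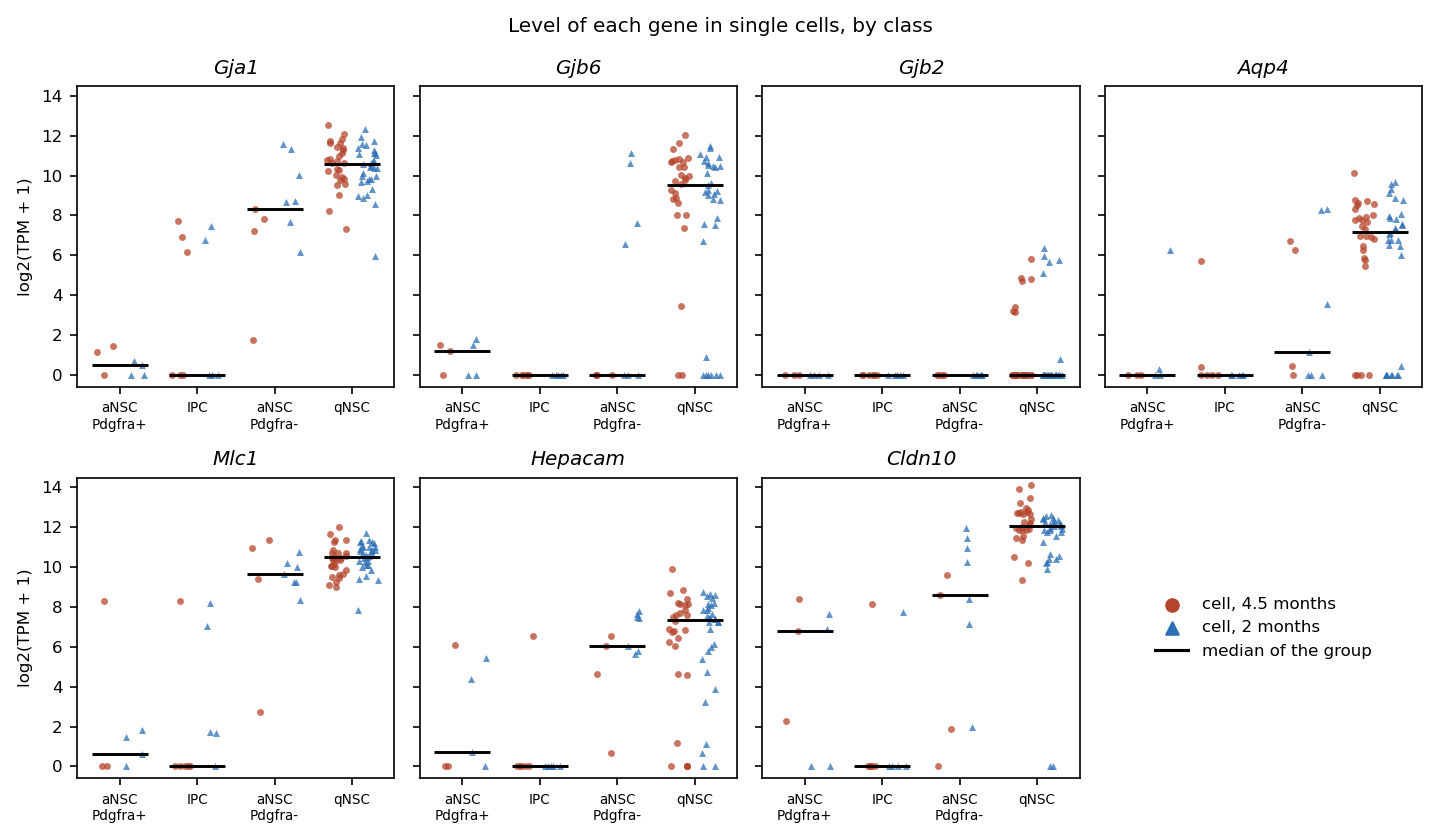
Level of each of the 7 genes in every cell, as log2(TPM + 1) on the vertical axis, for Pdgfra-positive aNSC (7 cells), IPC (11), Pdgfra-negative aNSC (11) and qNSC (60). Circles on the left of each group are cells of 4.5 months, triangles on the right cells of 2 months, and black lines are group medians. Gja1 and Mlc1 lie high in all 60 qNSC cells, and Gjb2 is above 0 in qNSC alone.

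Gja1 codes for connexin 43, the most widespread astrocyte connexin. In Pdgfra-positive aNSC its TPM ran from 0 to 1.70 with a median of 0.40. In IPC the 6 cells of 4.5 months ran from 0 to 211 TPM, and the 5 cells of 2 months had 0, 174, 110, 0 and 0 TPM. In Pdgfra-negative aNSC the 4 cells of 4.5 months had 226, 2.35, 147 and 318 TPM, and the 7 cells of 2 months ran from 71.7 to 3108 TPM with a median of 424 TPM. It was read in every qNSC cell, from 61.7 to 5988 TPM with a median of 1550 TPM. The Pdgfra-positive cells thus lay below every Pdgfra-negative and every qNSC cell, whereas Pdgfra-negative and qNSC cells overlapped. Mean log2(CPM + 1) was 0.77 ± 0.81 in Pdgfra-positive aNSC (n = 7 cells), 3.67 ± 4.24 in IPC, 8.99 ± 2.67 in Pdgfra-negative aNSC (n = 11 cells) and 11.42 ± 1.17 in qNSC. Cells with 10 or more counts made up 0 of 7 Pdgfra-positive aNSC (interval 0 to 41.0%), 5 of 11 IPC (16.7 to 76.6%), 10 of 11 Pdgfra-negative aNSC (58.7 to 99.8%) and 60 of 60 qNSC (94.04 to 100%).

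Gjb6 codes for connexin 30, which astrocytes gain later in development than connexin 43. Pdgfra-positive aNSC had 0 to 2.47 TPM, never above 4 counts. None of the 11 IPC cells had a read (0 of 11, which allows a share of up to 28.5%). In Pdgfra-negative aNSC the 4 cells of 4.5 months had 0 TPM each, while 4 of the 7 cells of 2 months had 92.7, 1575, 197 and 2228 TPM and the other 3 were at 0. A read was thus found in 4 of these 11 cells (36.4%, interval 10.9 to 69.2%). In qNSC it had 10 or more counts in 50 of 60 cells (83.3%, interval 71.5 to 91.7%), with TPM from 0 to 4274 and a median of 750. Summed over cells, the level was at least 864-fold lower in IPC than in Pdgfra-negative aNSC, taking a floor of 3 counts over the group. One cell of 2 months held 59.9% of these aNSC counts, and without it the bound was 367-fold; at 4.5 months neither group had a read. Of the 4 Pdgfra-negative aNSC cells with Gjb6, 3 were among the cells under 500000 counts. The other was the 2-month cell with mural and endothelial markers. Without cells under 500000 counts the difference of Pdgfra-negative aNSC from qNSC, −5.19 in mean log2(CPM + 1), was −7.45.

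Gjb2 codes for connexin 26, known from cochlear supporting cells, skin and meninges. No aNSC or IPC cell had a read: 0 of 7 Pdgfra-positive aNSC allows a share of up to 41.0%, and 0 of 11 Pdgfra-negative aNSC one of up to 28.5%. It was read in 13 of 60 qNSC cells, 12 of them at 10 or more counts (20%, interval 10.8 to 32.3%), and reached 81.9 TPM or 151 counts at most. The share in qNSC lies under both limits, so within either group a difference in share was not detectable at this number of cells.

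Aqp4 (chr18:15389496-15410982) codes for aquaporin-4. In Pdgfra-positive aNSC 6 of 7 cells had at most 0.24 TPM and 1 cell of 2 months had 76.1 TPM. In IPC 1 of 11 cells had more than 1 count, at 51.8 TPM. In Pdgfra-negative aNSC the 4 cells of 4.5 months had 0, 0.35, 74.7 and 105 TPM, and the cells of 2 months had 10.8, 312, 1.24, 318, 0, 0 and 0 TPM. Of these 11 cells 5 thus had 70 or more counts and 6 had 0 or 1, with both kinds of cell at both ages. In qNSC it had 10 or more counts in 47 of 60 cells (78.3%, interval 65.8 to 87.9%), with TPM from 0 to 1129 and a median of 145.4. Mean log2(CPM + 1) was 1.23 ± 2.92 in Pdgfra-positive aNSC, 0.77 ± 2.25 in IPC, 4.04 ± 4.20 in Pdgfra-negative aNSC and 7.35 ± 3.97 in qNSC.

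Mlc1 was the member with the steadiest level in qNSC. Pdgfra-positive aNSC had 0 to 2.49 TPM in 6 cells and 317 TPM in 1, and IPC had 129, 289 and 310 TPM in 3 cells and at most 2.33 TPM in the other 8. In Pdgfra-negative aNSC the 4 cells of 4.5 months had 686, 5.62, 1981 and 2653 TPM, and the 7 cells of 2 months ran from 322 to 1713 TPM with a median of 810. The value of 5.62 TPM belongs to the cell led by Enpp2 and Ttr. All 60 qNSC cells had Mlc1, from 232 to 4119 TPM with a median of 1458, and its SD of 0.71 in log2(CPM + 1) was the lowest of the 7. Mean log2(CPM + 1) was 9.70 ± 2.28 in Pdgfra-negative aNSC and 10.98 ± 0.71 in qNSC, a difference of −1.28 that is smaller than the SD of the aNSC cells. Without the cell led by Enpp2 and Ttr it was −0.64.

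Hepacam, whose protein brings MLC1 to cell junctions, was, like Mlc1, read in nearly every Pdgfra-negative aNSC cell. In Pdgfra-positive aNSC 3 of 7 cells had Hepacam, at 19.5, 42.7 and 66.6 TPM. In IPC 1 of 11 did, at 91.8 TPM. In Pdgfra-negative aNSC it reached 10 counts in 10 of 11 cells. The cells of 4.5 months had 23.9, 0.59, 92.8 and 65.4 TPM, and those of 2 months ran from 48.5 to 221 TPM with a median of 177. In qNSC it had 10 or more counts in 51 of 60 cells (85%, interval 73.4 to 92.9%) with a median of 162 TPM. Mean log2(CPM + 1) was 6.80 ± 2.10 in Pdgfra-negative aNSC and 7.05 ± 3.06 in qNSC, a difference of −0.26 that is well inside the spread over cells. The summed level was 2.48-fold lower, at 131 CPM in Pdgfra-negative aNSC and 325.6 CPM in qNSC, where 6 of 60 cells had no read. Without the cell led by Enpp2 and Ttr the difference in means was 0.31.

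Cldn10 codes for a claudin, a tight junction protein that is also made by astroglia. In Pdgfra-positive aNSC Cldn10 had the highest mean TPM of the 7, with 110 to 337 TPM in 4 of 7 cells and at most 3.93 TPM in the other 3. In IPC 2 of 11 cells had it, at 218 and 278 TPM. In Pdgfra-negative aNSC the 4 cells of 4.5 months had 390, 2.71, 792 and 0 TPM, and the 7 cells of 2 months ran from 2.94 to 4030 TPM with a median of 1227. In qNSC 10 or more counts were found in 58 of 60 cells (96.7%, interval 88.5 to 99.6%), and the other 2 cells, both green and of 2 months, had none. TPM in qNSC ran from 0 to 17841 with a median of 4277. Mean log2(CPM + 1) was 3.79 ± 3.23 in Pdgfra-positive aNSC, 1.26 ± 2.80 in IPC, 6.55 ± 3.97 in Pdgfra-negative aNSC and 10.60 ± 2.22 in qNSC.

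To set the members against all genes, a gene was counted as higher or lower where 20% or more of the cells in 1 of the groups had a read, mean log2(CPM + 1) differed by at least 1 and summed CPM by at least 2-fold in the same direction. In Pdgfra-negative aNSC against qNSC 5 of 7 members were lower (Gja1, Gjb6, Gjb2, Aqp4 and Cldn10), against 5.07% of 8033 genes measured. Gjb2 was measured there through qNSC alone, so it could only be lower. Of the 6 members read in 20% or more of the cells of both groups 4 were lower, against 4.16% of 5821 genes so read, and Mlc1 and Hepacam did not meet the rule. The median difference of the 6 was −2.87, and that of the 5821 genes 0.67. In Pdgfra-positive against Pdgfra-negative aNSC the 6 members measured were all lower, against 17% of 9574 genes. All 6 were read in 20% or more of the cells of both groups, with a median of −3.41, and of 6014 genes so read 12.1% were lower, with a median of 0.33. In IPC against Pdgfra-negative aNSC 6 of 6 were lower, against 20.5% of 8787 genes, but Gjb6, Aqp4, Hepacam and Cldn10 were measured through Pdgfra-negative aNSC alone. The members read in both groups were Gja1 and Mlc1, and 2 of these 2 were lower, against 13.8% of 5734 genes. The astrocyte marker sums given above moved with these differences, and their part in them was not tested. None was higher, against 20.4%, 25.3% and 22.8% of all genes in the 3 comparisons. Within single ages, the lower members among those read in both groups were 4 of 5 in Pdgfra-negative aNSC against qNSC at 4.5 months (11.2% of all genes so read) and 4 of 6 at 2 months (5.8%). In IPC against Pdgfra-negative aNSC they were 1 of 2 at 4.5 months (13.9%) and 3 of 3 at 2 months (21.1%).

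The members differed in how many cells outside qNSC had them. In IPC Gja1 had 10 or more counts in 5 of 11 cells, Mlc1 in 3 and Cldn10 in 2; any read was found in 5 of 11 cells for both Gja1 and Mlc1. A single IPC cell of 4.5 months held 5 members at 10 or more counts, with 118.5 TPM of Gja1, 51.8 TPM of Aqp4, 310 TPM of Mlc1, 91.8 TPM of Hepacam and 278 TPM of Cldn10. The other 10 IPC cells had 0 to 2 members at that level. Gjb6 and Gjb2 were the members with the smallest share of Pdgfra-negative aNSC cells at 10 counts (4 and 0 of 11), followed by Aqp4 (5 of 11) and Cldn10 (8 of 11), while Gja1, Mlc1 and Hepacam reached 10 of 11.

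**Figure D2:**
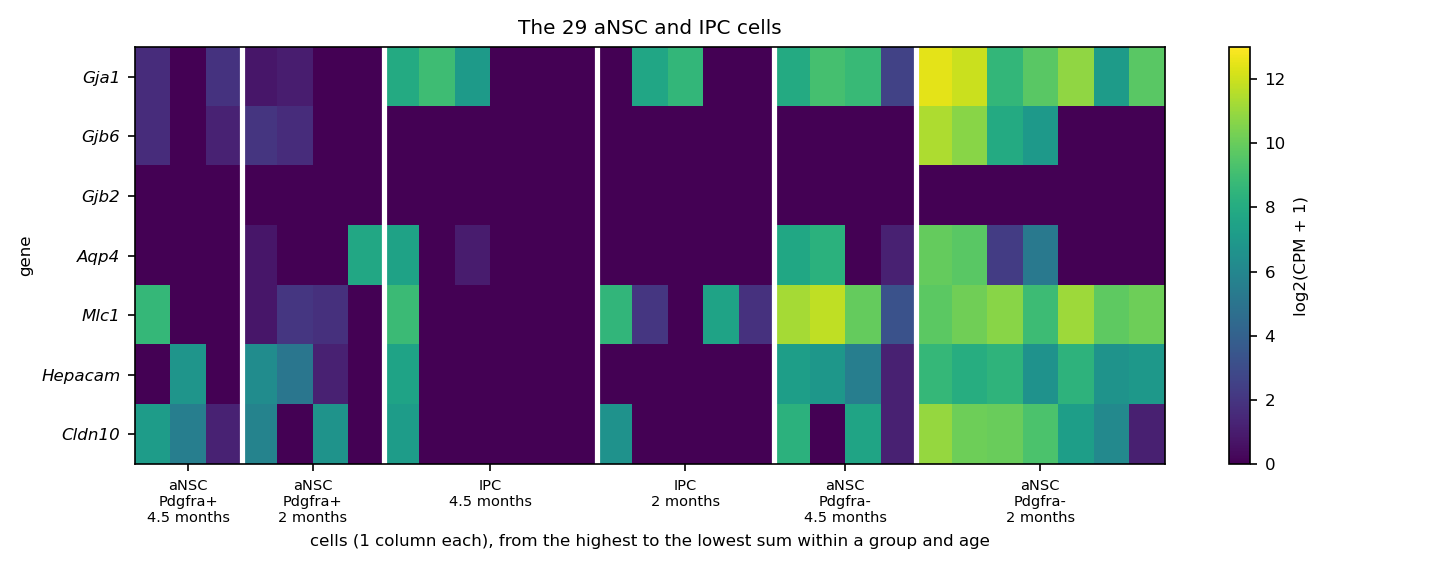
Heat map of log2(CPM + 1) for the 7 genes (rows) in the 29 aNSC and IPC cells (columns), by group and age. One IPC column of 4.5 months is filled for 5 genes, and Pdgfra-negative aNSC cells are filled for Gja1, Mlc1 and Hepacam in 10 of 11 columns and for Gjb6 in 4 columns of 2 months.

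Among the qNSC colours, Gjb6 was lower in green than in red cells. It had 10 or more counts in 18 of 25 green cells (72%, interval 50.6 to 87.9%) and 25 of 26 red cells (96.2%, interval 80.4 to 99.9%). Its mean log2(CPM + 1) was 6.76 ± 4.42 in green cells and 10.20 ± 2.34 in red cells, a difference of −3.44 where the larger SD was 4.42. All 7 green cells below 10 counts had no read, 6 of them of 2 months. Gjb2 was read in 3 of 25 green cells and 8 of 26 red cells, with summed levels of 7.81 CPM in green and 18.9 CPM in red. One green cell of 2 months held 78.6% of the green counts, and without it the green level was 1.76 CPM. Gja1 was read in every cell of both colours, at 1372 ± 1269 TPM in green cells and 2286 ± 1155 TPM in red cells. Its difference of −1.13 in log2(CPM + 1) came with a 1.88-fold lower summed level and missed the 2-fold rule.

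Of the other members, Aqp4 and Cldn10 also had lower means in green cells. Aqp4 had 10 or more counts in 18 of 25 green and 23 of 26 red cells, with means of 6.59 ± 4.29 in green and 8.40 ± 3.27 in red cells. Cldn10 averaged 9.49 ± 3.02 in green cells and 11.17 ± 0.53 in red cells. Mlc1, at 11.12 ± 0.63 in green and 10.87 ± 0.81 in red cells, was the only member with a higher mean in green cells, and Hepacam averaged 6.98 ± 2.81 in green and 7.22 ± 3.12 in red cells. By the rule 2 of 7 members (Gjb6 and Gjb2) were lower in green cells, against 6.08% of 7613 genes, and 0 were higher, against 11.1%. Gjb2 was measured through red cells alone. Of the 6 members read in 20% or more of both colours 1 was lower, against 5.07% of 5547 genes, and their median difference was −1.40. At 4.5 months 1 of 7 was lower (9.15% of genes so read), and at 2 months Gja1, Gjb6, Aqp4 and Cldn10, 4 of 6, were (8.66%). Summed astrocyte markers had a median of 28409 CPM in green and 38069 CPM in red cells, and summed stem cell markers 8145 CPM in green and 4299 CPM in red cells; their part in the difference was not tested.

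Blue cells stood out for Cldn10. All 9 had it, from 3793 to 17841 TPM with a median of 6697, and mean log2(CPM + 1) was 12.03 ± 0.88 in blue cells and 10.35 ± 2.29 in the other 51 qNSC cells. Within blue, the 5 cells of 4.5 months averaged 12.64 ± 0.66, against 11.26 ± 0.24 in the 4 of 2 months. The 5 cells had a median total of 442931 counts, the lowest of any colour and age. Without cells under 500000 counts the difference of blue from other cells was 1.28 and missed the 2-fold rule. By the rule 1 of 7 members was higher in blue cells, against 5.97% of 7705 genes, and 0 were lower, against 22.6%. The median difference was −0.10 over the members and −0.51 over all genes. Summed stem cell markers had a median of 3033 CPM in blue cells, and summed astrocyte markers 36571 CPM. Their part in the difference of Cldn10 was not tested.

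**Figure D3:**
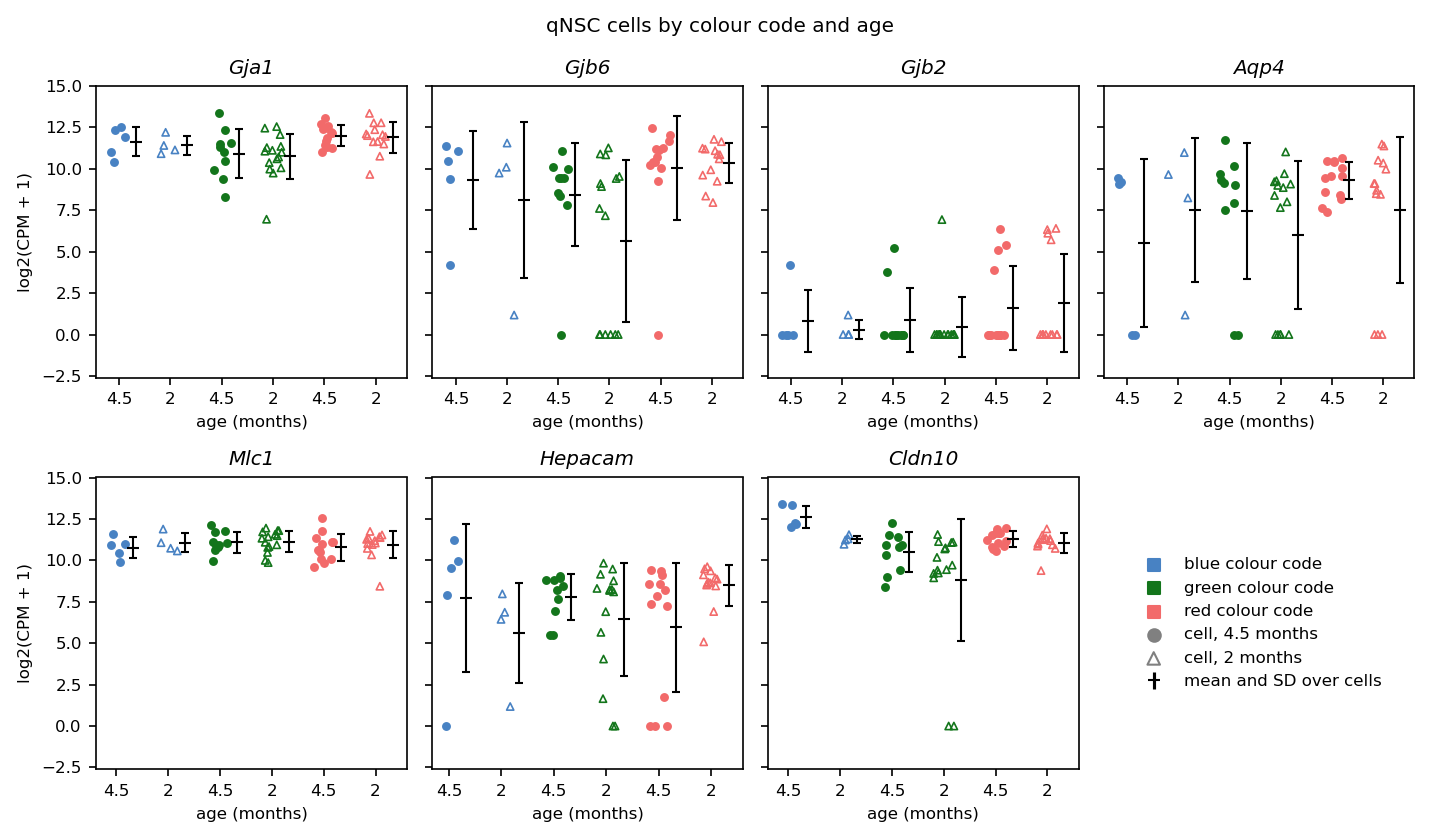
Level of each member in qNSC cells as log2(CPM + 1) on the vertical axis, by colour code and age, with 1 point per cell and the mean with its SD over cells. Green cells hold most of the points at 0 for Gjb6, Cldn10 is highest in blue cells of 4.5 months, and Mlc1 varies little over colours and ages.

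Between the ages, no member met the rule in qNSC in either direction (0 of 7), against 8.1% of 7247 genes lower and 3.81% higher at 4.5 months. The median difference was 0.25 over the members and −0.22 over all genes. Gjb6 differed most in mean log2(CPM + 1): 9.35 ± 3.08 at 4.5 months and 7.87 ± 4.30 at 2 months, with a read in 26 of 28 and 26 of 32 cells. Cldn10 averaged 11.24 ± 1.11 at 4.5 months and 10.04 ± 2.76 at 2 months, and Aqp4 7.97 ± 3.46 at 4.5 months and 6.81 ± 4.35 at 2 months. These differences are each smaller than the SD of the 2-month cells. Gja1 averaged 11.55 ± 1.13 at 4.5 months and 11.30 ± 1.22 at 2 months, and Gjb2 1.21 ± 2.19 at 4.5 months and 1.02 ± 2.32 at 2 months. The differences of Mlc1 and Hepacam were −0.16 and −0.24.

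For Hepacam the sign of the age difference was not the same in all colours. In green cells it averaged 7.79 ± 1.37 at 4.5 months (10 of 10 cells with a read) and 6.44 ± 3.40 at 2 months (13 of 15). In red cells it averaged 5.95 ± 3.91 at 4.5 months (10 of 13) and 8.48 ± 1.22 at 2 months (13 of 13). In blue cells it averaged 7.73 ± 4.48 at 4.5 months (4 of 5) and 5.61 ± 3.03 at 2 months (4 of 4). The difference between the colours in this was not tested. Within blue cells, 5 of 4.5 months against 4 of 2 months, Hepacam and Cldn10 were higher by the rule (15.8% of all genes) and Aqp4 lower (28.4%), while no member met it within green or red cells. Aqp4 was read in 13 of 13 red cells of 4.5 months and 10 of 13 of 2 months, and Gjb6 in 9 of 10 green cells of 4.5 months and 9 of 15 of 2 months.

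In Pdgfra-negative aNSC 4 of 6 members measured were lower at 4.5 months (Gja1, Gjb6, Hepacam and Cldn10), against 23% of 10129 genes, and 0 were higher, against 24%. Gjb6 was measured through 2 months alone, and of the 5 members read in both ages 3 were lower, against 20.1% of 6247 genes. The groups are 4 and 7 cells. Gjb6 had no read in the 4 cells of 4.5 months, and means were 0 at 4.5 months and 5.29 ± 5.17 at 2 months. Gja1 averaged 7.12 ± 3.06 at 4.5 months and 10.05 ± 1.88 at 2 months, Hepacam 5.22 ± 2.80 at 4.5 months and 7.70 ± 0.90 at 2 months, and Cldn10 4.27 ± 4.30 at 4.5 months and 7.85 ± 3.41 at 2 months. Aqp4 averaged 4.30 ± 4.33 at 4.5 months and 3.89 ± 4.47 at 2 months. Without the cell led by Enpp2 and Ttr, 1 of the 4 of 4.5 months, 3 members met the rule, and the differences were −1.43 for Gja1, −1.13 for Hepacam, −2.54 for Cldn10 and −5.29 for Gjb6. The difference of Mlc1 was −1.02 with that cell and 0.90 without it. Without cells under 500000 counts, 4 of which are 2-month Pdgfra-negative aNSC cells, the difference of Gjb6 was −2.32. In that setting Gjb6 and Cldn10 were lower at 4.5 months by the rule and Aqp4 was higher. Gja1 and Hepacam no longer met it. The only 2-month cell left with a read of Gjb6 was the one with mural and endothelial markers, at 234 counts. That cell also had 1202 counts of Cldn10, against 57 and 1 in the other 2-month cells left.

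The members were read in different combinations. At 10 or more counts, Pdgfra-positive aNSC cells had 0 to 2 members, and Pdgfra-negative aNSC cells had 3 to 6 in 10 of 11 cells. In qNSC, 10 of 60 cells had all 7, 28 had 6 and 22 had 3 to 5; the set of all but Gjb2 was the most frequent, in 26 cells. Those 10 cells were 3 green, 6 red and 1 blue. Every one of the 12 cells with Gjb2 also had Gjb6 and Aqp4, and 10 of them had Hepacam. Aqp4 accompanied Gjb6 in 42 of 50 cells and was present in 5 of the 10 cells without Gjb6.

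Across the 60 qNSC cells the closest pairs lay among Gja1, Gjb6, Aqp4 and Cldn10. Spearman's rho of log2(CPM + 1) was 0.58 for Gja1 with Aqp4, 0.53 for Gja1 with Gjb6, 0.51 for Gjb6 with Cldn10 and 0.48 for Gjb6 with Aqp4. Aqp4 with Cldn10 was lower at 0.25 (−0.11 over the cells of 4.5 months, 0.52 over those of 2 months), near Hepacam with Cldn10 at 0.23 and below Gjb6 with Gjb2 at 0.37. Mlc1 with Gjb6 gave −0.35. Cells share their library preparation and their total counts, and rho of the members with total counts lay between −0.19 and 0.13. Thinned to 444835 counts, which 55 qNSC cells reached, Gja1 with Gjb6 gave 0.58. The relation of Gja1 with Gjb6 was 0.32 over 28 cells of 4.5 months and 0.70 over 32 of 2 months, and 0.83 over 25 green and 0.13 over 26 red cells. It was thus strongest over the green cells, 7 of which had no read of Gjb6.

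**Figure D4:**
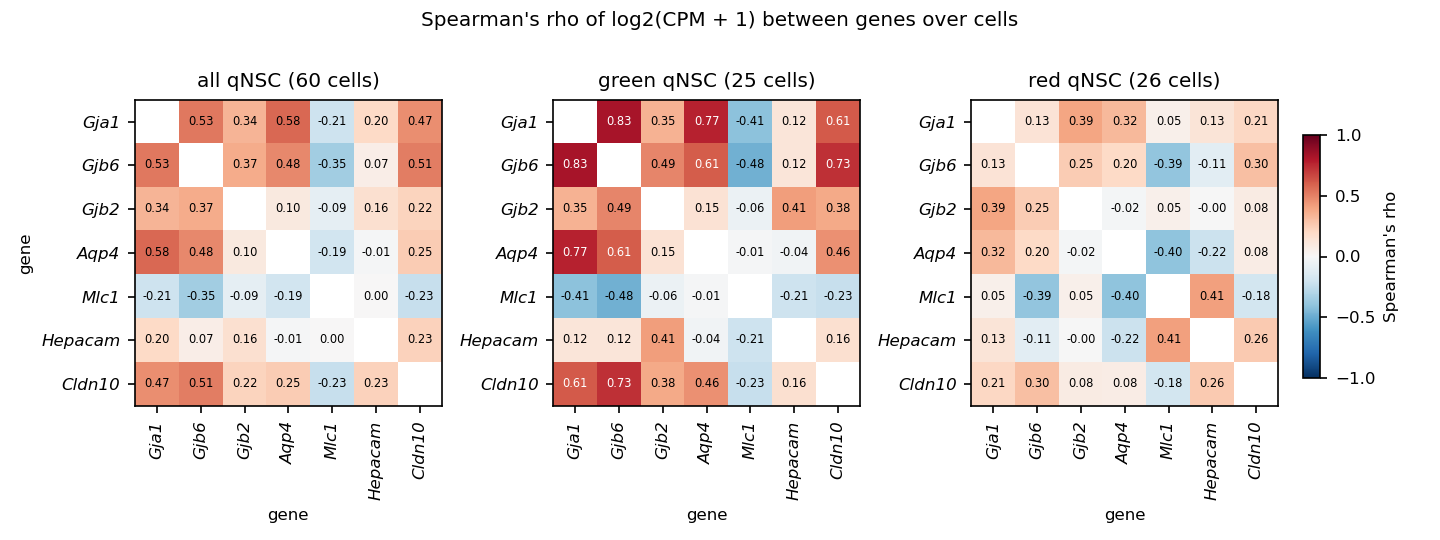
Spearman correlation of log2(CPM + 1) between each pair of the 7 genes, over all 60 qNSC cells, the 25 green and the 26 red cells. Gja1 with Gjb6 is 0.83 in green and 0.13 in red cells, and Mlc1 with Gjb6 is −0.35 over all 60.

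The 5 genes most like each member over the 60 qNSC cells were listed by rho among 2446 genes. For Gja1 they were S1pr1 (0.70), Cxcl14, Gpr37l1, Htra1 and Slc39a12, and for Gjb6 Htra1 (0.68), F3, Glul, Gpr37l1 and S1pr1. For Aqp4 they were Htra1 (0.61), Glul, Gja1, Gpr37l1 and F3, and for Cldn10 Clu (0.68), Serpine2, Hacd2, F3 and Gstm5. Htra1 and Gpr37l1 thus stood in the lists of Gja1, Gjb6 and Aqp4, and F3 in those of Gjb6, Aqp4 and Cldn10. For Mlc1 the list was Zbtb20 (0.48), Tmem100, Cd9, Lfng and Myl9, and none of them was in the list of another member. For Hepacam (Dram2, 0.47) and Gjb2 (1700123O20Rik, 0.48) the likeness was low.

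Other genes of these pathways were followed from lists. Of 20 other connexins and pannexins, 2 were measured in Pdgfra-negative aNSC against qNSC. Both (Gja4 and Gjc1) were higher, against 20.4% of all genes, and Gja4 was measured through Pdgfra-negative aNSC alone. Both differences rest on 1 cell of 2 months, the one with mural and endothelial markers. It held 99.6% of the Gja4 counts and 86.8% of the Gjc1 counts of its group. Gjc3, the connexin 29 gene of the oligodendrocyte lineage, was present in Pdgfra-positive aNSC, where Gja1 and Gjb6 were nearly unread. It was read in 7 of 7 of these cells at 22 to 699 counts, with a mean log2(CPM + 1) of 7.95 ± 1.52, against 0.11 ± 0.35 in Pdgfra-negative aNSC, where 1 of 11 cells had 1 count. Panx1, which codes for the channel protein pannexin 1, was read in 7 of 11 IPC cells and 2 of 11 Pdgfra-negative aNSC cells, with means of 4.27 ± 3.78 in IPC and 1.11 ± 2.48 in Pdgfra-negative aNSC.

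Of 11 other aquaporins only Aqp11, an aquaporin of internal membranes, was measured in qNSC, with a read in 13 of 60 cells. Of the 11 genes of the dystrophin complex, which anchors aquaporin-4 at endfeet, 8 were measured in IPC against Pdgfra-negative aNSC and 5 were lower, against 20.5% of all genes, among them Dmd, Utrn, Sntb1 and Dtna. Dtna, the α-dystrobrevin gene, had means of 3.82 ± 3.97 in Pdgfra-positive aNSC, 2.86 ± 3.19 in IPC, 6.20 ± 3.16 in Pdgfra-negative aNSC and 7.22 ± 2.96 in qNSC.

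Of 7 genes of proteins that work with MLC1 and HEPACAM, 6 were measured in Pdgfra-negative aNSC against qNSC. Of these 6, Gpr37l1, an astroglial receptor, and Gprc5b were lower in Pdgfra-negative aNSC, against 5.07% of all genes. Gpr37l1 remained high in Pdgfra-positive aNSC, unlike Mlc1: its means were 10.67 ± 0.76 in Pdgfra-positive aNSC, 2.68 ± 3.504 in IPC, 9.63 ± 3.02 in Pdgfra-negative aNSC and 11.77 ± 0.97 in qNSC. It was also lower in green than in red qNSC, at 11.09 ± 0.98 in green and 12.32 ± 0.61 in red cells. Cav1, the gene of caveolin-1, was read in 7 of 7 Pdgfra-positive cells with a mean of 8.94 ± 0.84, against 1.57 ± 2.78 in Pdgfra-negative aNSC, where the cell with mural and endothelial markers held 98.6% of the counts. In IPC 5 of the 6 measured genes of this list were lower than in Pdgfra-negative aNSC (Clcn2, Lrrc8a, Atp1b1, Gpr37l1 and Cav1), against 20.5% of all genes.

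Of 16 other claudin and tight junction genes, 4 were measured in Pdgfra-negative aNSC against qNSC. Of these, 3 were higher (Cldn2, Cldn5 and Ocln), against 20.4% of all genes. Cldn2 and Ocln were measured through Pdgfra-negative aNSC alone. The cell with mural and endothelial markers held 99.7% of the Cldn5 counts and 83.7% of the Ocln counts of its group. Of 7 junction scaffold genes found in the table, 5 were measured in IPC against Pdgfra-negative aNSC. In IPC 1 of the 5 was higher, a share near the 22.8% of all genes. It was Ctnnb1, the β-catenin gene, with means of 9.04 ± 3.09 in IPC and 6.31 ± 3.41 in Pdgfra-negative aNSC.

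Pdgfra-positive aNSC had fewer reads than Pdgfra-negative aNSC of Sntb1 and Dtna, of Clcn2 and Atp1b1 and of Ctnna1, all lower by the rule. Dtnb and Cldn12 were higher. Sntb1 and Clcn2 were measured through Pdgfra-negative aNSC alone, and Dtnb and Cldn12 through Pdgfra-positive aNSC alone. In green against red qNSC, Aqp11 and Ctnnb1 were higher, and Lrrc8a and Gpr37l1 lower. In blue against other qNSC, 6 of the 25 measured genes of these lists were lower, a share near the 22.6% of all genes, and none was higher: Dtnb, Clcn2, Cav1, Tjp1, Cdh2 and Ctnna1. Cav1 averaged 0.65 ± 1.70 in blue and 3.76 ± 4.09 in the other qNSC cells, and Cdh2, the N-cadherin gene, 2.10 ± 3.38 in blue and 5.14 ± 3.40 in the others.

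**Figure D5:**
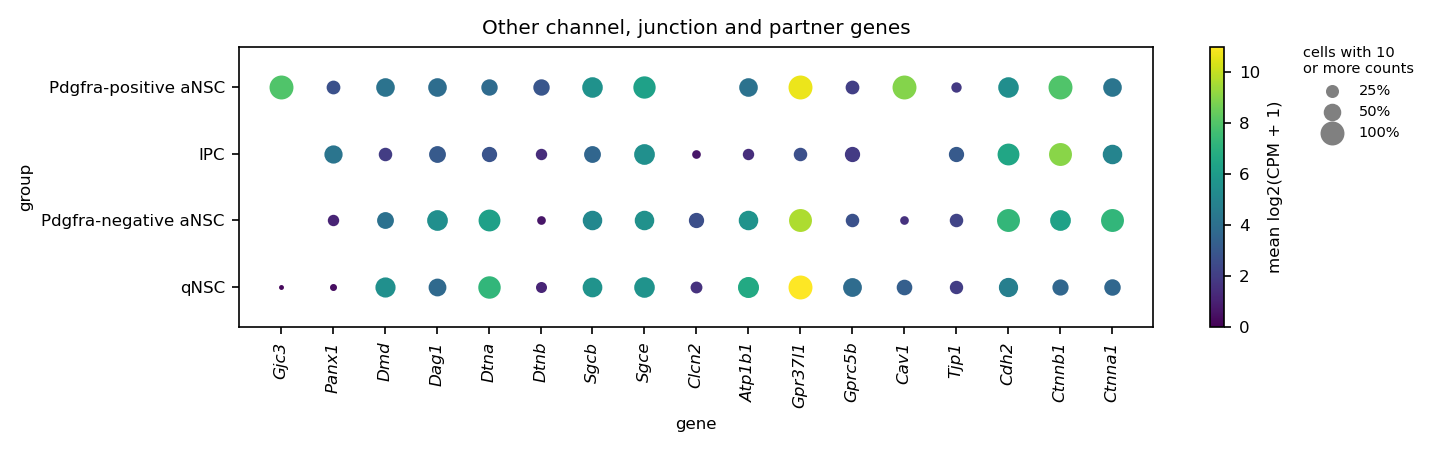
Genes of the related lists (horizontal axis) in Pdgfra-positive aNSC, IPC, Pdgfra-negative aNSC and qNSC (from top to bottom). Dot size is the share of cells with 10 or more counts and colour the mean log2(CPM + 1). Gjc3 and Cav1 are filled in 7 of 7 Pdgfra-positive cells, and Gpr37l1 is high in all groups but IPC.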

How the data were processed

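Full-length cDNA of single sorted cells was sequenced after SMART-Seq v4 amplification, per the labels' protocols. STAR, RSEM and build mm10 are named in the submitters' processing notes, with versions not given in the sources used here. The authors deposited estimated counts per gene and cell, in which 4.44% of values above 0 were not whole (tolerance 1e-06); these were rounded to whole numbers, and none belonged to the 7 genes. The authors also deposited TPM per gene and cell, and a table of classes and colour codes.

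Counts were scaled to CPM per cell and taken as log2(CPM + 1), a scale that understates differences of low genes. For each gene and group the mean and SD over cells, the shares of cells with a read and with 10 or more counts, and the CPM of counts summed over cells were computed. Each age is 1 sample, since no label names an animal; no test across samples was run, and edgeR was used for its TMM factors alone. The rule of counting a gene as higher or lower is given with its first use. All genes were put through it, on simulated data first. For each member the 5 genes with the highest Spearman's rho are named; they were taken from genes read in at least 50% of qNSC cells. Genes of the 6 pathway lists are named where they met the rule or were among the 3 highest by TPM in qNSC. Some genes of these lists are not reported here. Genes, members and 18 lists were chosen with earlier results of these data known. Copies made by PCR were not marked, so intervals, and floors of 3 counts over a group, cover counting error only. The library kit does not mark the strand. Precision is set by totals of 234607 to 1896072 counts per cell and by group sizes of 4 to 60 cells.

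Alternatives were TMM library sizes, deposited TPM, thinned counts, pseudocount 10, other filters, medians over cells, other Pdgfra splits and left-out cells. Versions were Python 3.11.15, numpy 2.4.6, pandas 2.3.3, scipy 1.17.1, matplotlib 3.10.9, R 4.3.3 and edgeR 4.0.16.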

Additional observations from a re-analysis of the deposited data

Results flagged for a closer look

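Among 59 pairs of a member and a group of 4 to 10 cells, 13 had 1 cell far from the others. The rule used flags about 1 in 20 by chance for normally distributed values in separate groups. Here many values are 0 and some groups hold others, so that rate does not apply and 13 cannot be read against it. In Pdgfra-positive aNSC, 1 cell of 2 months had Aqp4 at 7.82 in log2(CPM + 1), the farthest also among the 4 cells of that age, and 1 cell had Mlc1 at 8.67. One IPC cell of 4.5 months stood apart for Aqp4 (7.50), Mlc1 (8.87), Hepacam (7.56) and Cldn10 (7.17), and 1 IPC cell of 2 months for Cldn10 (6.64). One blue qNSC cell of 4.5 months had Gjb2 at 4.20, the highest both of all blue cells and of that age, and 1 blue cell of 2 months had it at 1.18, which is 1 count. Gjb6 was lowest in 1 green cell of 4.5 months, at 0, and in 1 blue cell of 4.5 months, at 4.17.

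Of 14 pairs of age differences set side by side, 3 had opposite signs with both sizes at 1 or more; the difference between them was not tested. Gjb6 at 4.5 months less 2 months was −5.29 in Pdgfra-negative aNSC and 1.48 in qNSC. Cldn10 was −3.57 in Pdgfra-negative aNSC and 1.20 in qNSC. Hepacam was 1.36 in green and −2.53 in red qNSC.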

How the results depend on the processing

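The count of members meeting the rule was 2 in green against red qNSC. It was 4 with TMM library sizes, 1 with pseudocount 10, 1 with a read in 50% of cells, 1 with medians over cells, 1 with a read in 20% of cells of both groups and 4 without the highest cell of each member, and 2 or 3 otherwise. In blue against other qNSC it was 1, and 0 with thinned counts, 0 without the highest cell and 0 without cells under 500000 counts. Counts stayed between 4 and 7 in Pdgfra-negative aNSC against qNSC, 5 and 6 in Pdgfra-positive against Pdgfra-negative aNSC, 5 and 6 in IPC against Pdgfra-negative aNSC except for 2 with a read in 20% of cells of both groups, 3 and 4 between the ages in Pdgfra-negative aNSC, and 0 between the ages in qNSC. Some signs depended on the setting. Gjb6 in Pdgfra-positive against Pdgfra-negative aNSC was −2.43 by means and 1.25 by medians over cells. Leaving out the cell led by Enpp2 and Ttr changed 2 smaller differences given above from negative to positive. These were Mlc1 between the ages in Pdgfra-negative aNSC and Hepacam in Pdgfra-negative aNSC against qNSC. Without the split, the aNSC group also holds the 7 Pdgfra-positive cells, and its difference from qNSC was −5.63 for Gja1 and −4.31 for Mlc1. Those 7 cells had a mean log2(CPM + 1) of 0.77 for Gja1 and 1.91 for Mlc1. The alternatives without the cell led by Enpp2 and Ttr, without cells under 500000 counts and with a read in both groups were chosen after seeing the data. No paired analysis was possible because the cells carry no number that ties them across groups. Shares in the aNSC and IPC groups rest on 7 or 11 cells, so their intervals are wide.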
